A study of Mus musculus with 8 samples.

Results

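The transcripts described here encode 10 enzymes of serine synthesis, of the folate one-carbon cycle and of proline synthesis: *Phgdh*, *Psat1*, *Psph*, *Shmt1*, *Shmt2*, *Mthfd1*, *Mthfd1l*, *Mthfd2*, *Aldh1l2* and *Pycr1*. They were chosen by name, and all 10 were found among the 11911 protein-coding genes of the count table. All 10 also passed the filter on low counts, which kept 11317 genes for testing. *Aldh1l2* was included because it was higher in every knockout library, so its values are given as a description and without a test. *Shmt2*, *Mthfd1l*, *Mthfd2*, *Aldh1l2* and *Pycr1* act in mitochondria, and *Phgdh*, *Psat1*, *Psph*, *Shmt1* and *Mthfd1* act in the cytosol.

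The 8 libraries were made from iTregs, the regulatory T cells that form in culture from naïve CD4+ T cells. Those cells came from the spleens of Foxp3YFP-Cre mice, called WT here (n = 4), or TDRD3fl/fl/Foxp3YFP-Cre mice, called KO (n = 4), on a C57BL/6J background. Every culture received hamster antibodies to CD3 and CD28, TGF-β, anti-IL-4 and anti-IFNγ for 36 h, and both genotypes carry the Foxp3YFP-Cre allele, so the floxed *Tdrd3* alleles are what separates them. The age of the mice was not given for this assay. Cre is expressed from the *Foxp3* locus and can delete *Tdrd3* only in cells that have switched *Foxp3* on. RNA was taken from harvested CD4+ cells, and no sorting of YFP+ cells was named, so each library could hold RNA of cells that had not become iTregs. The Methods state fewer replicates per group than the labels, which give 4, and each of the 8 libraries was included.

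Serine is made from a glycolytic intermediate in 3 steps, catalysed in turn by PHGDH, PSAT1 and PSPH. The SHMT enzymes then split serine into glycine and a carbon unit that is carried on tetrahydrofolate. In mitochondria that unit is usually oxidized by MTHFD2 and released as formate by MTHFD1L, and in the cytosol MTHFD1 attaches formate to folate again for the synthesis of purines and thymidylate. Activated T cells are known to raise this pathway as they start to divide, and several of its genes are textbook targets of the transcription factor ATF4.

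Counts of the listed genes summed to 13258239 to 16001676 per library. All 5 T cell markers and all 5 Treg markers looked for were detected and tested, as the label of the cells requires, and edgeR's quasi-likelihood test called none of them different between genotypes (adjusted p under 0.05). At an unadjusted P below 0.05, which 4.91% of all tested genes reached in the lower direction, 3 of the 5 Treg markers were lower in KO libraries (*Foxp3*, *Il2ra* and *Ikzf2*, by 0.31, 0.13 and 0.14 on the log2 scale). *Ctla4* and *Tnfrsf18* had no such P, with log2 fold changes of 0.06 and −0.06. The summed level of the Treg markers was 3339 to 3491 CPM (normalized counts scaled to the depth of each library) in WT libraries and 3147 to 3259 in KO libraries. *Il2ra* made up most of that sum, at 2179 to 2370 CPM in WT and 2025 to 2169 CPM in KO libraries. In bulk RNA, fewer cells of a type and less RNA per cell cannot be told apart. The targeted gene, *Tdrd3*, had 18.8, 15.1, 9.95 and 17.7 CPM in the libraries labelled WT1 to WT4 and 13.7, 10.7, 12.9 and 11.1 in KO1 to KO4. Its log2 fold change was −0.35 with an SE of 0.155 (adjusted p of 0.496 in the same edgeR test). The library labelled WT3 lay below every KO library. The paper reports the deletion by immunoblot and qPCR in splenic Tregs, and lower *Tdrd3* by qPCR in iTregs. It also counts *Tdrd3* among the genes most reduced in its RNA-seq. Gene totals do not show which exons were read, and the reason for the difference from the paper was not tested. Defining markers of other cells were at low levels. Summed CD8 T cell markers were at 10.6 to 23.7 CPM in WT and 9.03 to 11.4 in KO libraries, NK cell markers at 5.67 to 9.04 and 3.99 to 6.14, B cell markers at 1.71 to 2.55 and 0.871 to 2.71, and myeloid markers at 0.479 to 1.16 and 0.439 to 2.11, and no erythroid marker was listed. At an unadjusted P below 0.05, *Cd8a*, *Cd8b1* and *Nkg7* were lower in KO libraries by 2.15, 0.36 and 0.73 on the log2 scale, and *Cd8a* was at 11.3 CPM in WT3 and at most 1.37 elsewhere. The other tested CD8 T cell and NK cell markers, *Eomes* and *Klrk1*, went the other way without such a P, with log2 fold changes of 0.19 and 0.32. The part of such other cells in the values below was not tested.

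Of the 9 members other than *Aldh1l2*, none passed an adjusted p of 0.05 between the genotypes in the edgeR test, a threshold passed by 0.265% of all tested genes. DESeq2 and limma voom also called none of them. At an unadjusted P below 0.05, 2 of the 9 were higher in KO libraries, *Psat1* and *Shmt2*, whereas 9.3% of all tested genes had such a P in either direction and 4.38% were higher. Neither differed by 1.2-fold, and 3.47% of all tested genes had both that fold and that P. For 8 of the 9, the 95% interval of the fold change lay within 1.2-fold in both directions, the exception being *Pycr1*. The log2 fold change of 8 of the 9 was above 0, as was that of 50.6% of all tested genes, and the median was 0.06 for the 9 and 0.0013 for all tested genes.

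**Figure D1:**
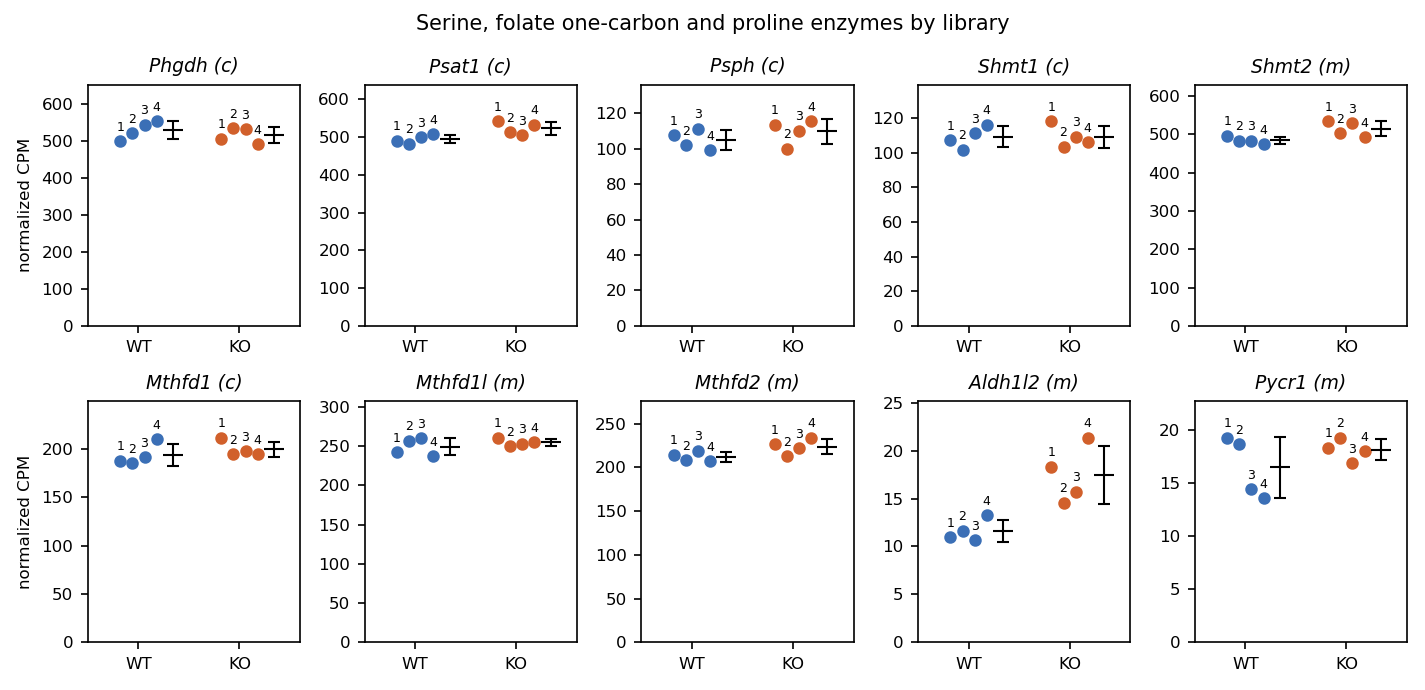
Normalized CPM of each enzyme transcript (vertical axis, from 0) in the 4 WT and 4 KO libraries, numbered by replicate, with the mean ± SD in black; (m) marks mitochondrial and (c) cytosolic enzymes. The WT and KO points overlap for every transcript except *Aldh1l2*, which was chosen for its pattern and lies at 10.7 to 13.2 CPM in WT and 14.5 to 21.3 CPM in KO libraries.

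*Phgdh* (ENSMUSG00000053398; GRCm39 chr3:98220486-98247306, minus strand) encodes the dehydrogenase that commits glycolytic carbon to serine. It had 498, 520.1, 544 and 553 CPM in WT1 to WT4 and 506, 535, 531 and 491 CPM in KO1 to KO4. The genotypes overlapped, with the highest value in WT4 and the lowest in KO4, the reverse of most members. The mean was 529 ± 24.6 CPM in WT and 516 ± 20.9 CPM in KO (SD, n = 4), a fold of 0.975 with a 95% interval of 0.918 to 1.04 (edgeR unadjusted P = 0.399, adjusted p = 0.876). An annotated processed pseudogene on chromosome 7, *Phgdh-ps1*, resembles its transcript, and the deposited values divide reads that match more than 1 gene by estimation.

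*Psat1* (ENSMUSG00000024640; chr19:15882042-15924701, minus strand) encodes the aminotransferase of the next step. Its level was 491, 482, 500.1 and 507 CPM in WT1 to WT4 and 542, 513, 506 and 533 CPM in KO1 to KO4. All KO libraries but KO3 exceeded every WT library, and KO3 lay just below WT4. The mean was 495 ± 10.9 CPM in WT and 523 ± 16.9 CPM in KO (SD, n = 4), a fold of 1.06 with a 95% interval of 1.002 to 1.116, and this did not pass the adjusted threshold (edgeR unadjusted P = 0.0435, adjusted p = 0.514; two-sided exact permutation test, p = 0.0571). Without KO1 and KO4 its log2 fold change was 0.04, against 0.08 with all libraries.

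*Psph* (ENSMUSG00000029446; chr5:129842622-129864513, minus strand) encodes the phosphatase that releases serine. It was read at 107, 102, 111 and 99.1 CPM in WT1 to WT4 and 113, 99.9, 110.1 and 115 CPM in KO1 to KO4. The genotypes overlapped through most of their range, at 105 ± 5.44 CPM in WT and 109.7 ± 6.88 CPM in KO (SD, n = 4; fold 1.05, 95% interval 0.966 to 1.13, edgeR adjusted p = 0.824). Up to 465 bases of a *Psph* exon lie opposite an exon of *Cct6a* on the other strand, a gene with a log2 fold change of 0.07 (edgeR adjusted p = 0.701). The estimated counts of *Psph* and *Cct6a* lay up to 0.43 and 0.49 from a whole number, while their sum lay within 0.07 of one in every library. Whether the counting used strand is not given in the sources used here, so reads over such stretches cannot be assigned with certainty.

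The hydroxymethyltransferases exist in a cytosolic form, from *Shmt1* (ENSMUSG00000020534; chr11:60678930-60702544, minus strand), and a mitochondrial form, from *Shmt2* (ENSMUSG00000025403; chr10:127352992-127358313, minus strand). *Shmt1* had 107, 102, 111 and 116 CPM in WT1 to WT4 and 118, 103, 109 and 106 CPM in KO1 to KO4. Both groups averaged 109 CPM, with SDs of 6.08 in WT and 6.42 in KO (n = 4), and the log2 fold change of 0.00 had a standard error of 0.0531 (edgeR adjusted p = 0.999). *Shmt2* had 496, 484, 483 and 474 CPM in WT1 to WT4 and 534, 503, 528 and 492 CPM in KO1 to KO4. Here KO4, the lowest KO library, lay just under WT1, the highest WT library, and the other KO libraries exceeded every WT library. The mean of *Shmt2* was 484 ± 8.85 CPM in WT and 514 ± 20.0 CPM in KO (SD, n = 4), a fold of 1.06 with a 95% interval of 1.005 to 1.12 (edgeR unadjusted P = 0.0330, adjusted p = 0.485; two-sided exact permutation test, p = 0.0571). Without KO1 and KO4 the log2 fold change of *Shmt2* was 0.09, the value obtained with all libraries. An exon of *Shmt1* shares 184 bases with *Smcr8* on the opposite strand. *Smcr8* had 88.2, 87.2, 88.4 and 86.0 CPM in WT1 to WT4 and 83.9, 82.4, 78.8 and 80.1 CPM in KO1 to KO4, lower in every KO library, with a log2 fold change of −0.10 (edgeR unadjusted P = 0.0389, adjusted p = 0.499). The estimated counts of *Shmt1* and *Smcr8* each lay up to 0.47 from a whole number, while their sum lay within 0.01 of one in every library. How reads were divided between them can thus bear on the level of *Shmt1* and on its ratio to *Shmt2*, and the size of that share was not tested. An exon of *Shmt2* shares 727 bases with *Ndufa4l2*, which is not in the count table.

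*Mthfd1* (ENSMUSG00000021048; chr12:76302072-76366577, plus strand) encodes a cytosolic enzyme with 3 activities that interconverts the folate-bound carbon units. Its level was 188, 185, 191 and 209.9 CPM in WT1 to WT4 and 212, 195, 198 and 195 CPM in KO1 to KO4. WT4 and KO1 were the highest libraries, 1 in each group, and the remaining 6 lay between 185 and 198 CPM. The mean was 194 ± 11.2 CPM in WT and 199.7 ± 8.12 CPM in KO (SD, n = 4; fold 1.03, 95% interval 0.964 to 1.10, edgeR adjusted p = 0.861).

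*Mthfd1l* (ENSMUSG00000040675; chr10:3923118-4117081, plus strand) encodes the mitochondrial synthetase that releases formate. It stood at 242, 257, 259.8 and 237 CPM in WT1 to WT4 and 260.4, 250.03, 253 and 255 CPM in KO1 to KO4. The 4 KO values fell almost wholly inside the WT range, and the mean was 249 ± 11.0 CPM in WT and 255 ± 4.39 CPM in KO (SD, n = 4; fold 1.02, 95% interval 0.964 to 1.085, edgeR adjusted p = 0.889).

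*Mthfd2* (ENSMUSG00000005667; chr6:83282673-83302890, minus strand) encodes the mitochondrial dehydrogenase and cyclohydrolase of the folate cycle. It had 214, 208, 219 and 207 CPM in WT1 to WT4 and 227, 213, 222 and 234 CPM in KO1 to KO4. All KO libraries but KO2 exceeded every WT library. The mean was 212 ± 5.56 CPM in WT and 224 ± 8.81 CPM in KO (SD, n = 4), a fold of 1.05 with a 95% interval of 0.993 to 1.12 (edgeR unadjusted P = 0.0814, adjusted p = 0.620; two-sided exact permutation test, p = 0.0857). Without KO1 and KO4 the log2 fold change of *Mthfd2* was 0.03, against 0.08 with all libraries.

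*Aldh1l2* (ENSMUSG00000020256; chr10:83323314-83370004, minus strand) encodes the mitochondrial dehydrogenase that oxidizes formyl-tetrahydrofolate to carbon dioxide and yields NADPH. It had the lowest mean count of the 10 transcripts, 208 against 249 for *Pycr1*, with 152 to 314 estimated counts per library. In KO4 it was above *Pycr1*, at 21.3 against 18.1 CPM. Its level was 11.0, 11.6, 10.7 and 13.2 CPM in WT1 to WT4 and 18.3, 14.5, 15.7 and 21.3 CPM in KO1 to KO4. The nearest values of the groups were 13.2 CPM in WT4 and 14.5 CPM in KO2, and this separation is what the choice of the gene fixed. The mean was 11.6 ± 1.16 CPM in WT and 17.5 ± 3.01 CPM in KO (SD, n = 4), a fold of 1.502 and a log2 fold change of 0.59. The choice of the gene favours a large difference, so the size of this fold is a description and not support for a change. Every KO library exceeded every WT library for 2.25% of all tested genes and lay below every WT library for 2.63%. Just outside the rule were *Psat1*, *Shmt2* and *Mthfd2*, each with 3 of 4 KO libraries above every WT library. The share of all tested genes with that looser pattern was not counted, and the 2 shares above do not apply to it. KO1 and KO4 were the highest libraries of *Aldh1l2*, and without both its log2 fold change was 0.38. They were also the only libraries with counts of the myeloid marker *Lyz2*, at 9 and 18 counts, and those with the lowest *Foxp3*, at 77.2 and 78.1 CPM against 93.2 to 122 CPM in the other 6. Over all genes KO1 and KO4 were also the most alike pair of KO libraries. The part of these in the result was not tested. The replicate coefficient of variation of *Aldh1l2* was 9.95% in WT and 17.2% in KO, against 6.93% from counting alone at its mean count of 208.

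The last exon of *Aldh1l2*, where its 3′ untranslated region lies, shares 1056 bases (chr10:83323314-83324369) with an exon of *Nopchap1* on the opposite strand. *Nopchap1* was about as high in both genotypes, at 107, 110.2, 107 and 113 CPM in WT1 to WT4 and 105, 100.7, 115 and 109 CPM in KO1 to KO4, with a log2 fold change of −0.03 (edgeR adjusted p = 0.924). Reads from that stretch could belong to either gene if strand was not used in counting, so the level of *Aldh1l2* is uncertain there. In 6 of 8 libraries the estimated count of *Aldh1l2* was more than 0.01 from a whole number. The sum of the counts of *Aldh1l2* and *Nopchap1* also lay up to 0.412 from a whole number, and the source of these fractions was not tested. The cytosolic counterpart of *Aldh1l2*, *Aldh1l1*, did not exceed 11 counts in the libraries, and it was not tested.

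*Pycr1* (ENSMUSG00000025140; chr11:120526538-120534595, minus strand) encodes a mitochondrial reductase that completes proline synthesis, outside the folate cycle. Its level was 19.3, 18.7, 14.4 and 13.6 CPM in WT1 to WT4 and 18.4, 19.3, 16.9 and 18.1 CPM in KO1 to KO4. The WT libraries split into a higher and a lower pair, and the KO values fell within the WT range. The mean was 16.5 ± 2.91 CPM in WT and 18.2 ± 0.988 CPM in KO (SD, n = 4), a fold of 1.10 with a 95% interval of 0.935 to 1.30 (edgeR adjusted p = 0.812). With a mean of 249 counts per library, counting alone gives a coefficient of variation of 6.34%, and the replicates varied by 17.6% in WT and 5.44% in KO.

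For each gene, the 250 bases before the start of its annotated canonical transcript were searched on both strands. Other annotated starts of a gene were not searched. The search was for 3 letter patterns that textbooks tie to regulators of these genes. TGATGNAA, the composite element bound by ATF4 with C/EBP factors, is in 2.02% of 11316 promoters of tested genes and in 1 of the 10 enzyme promoters, that of *Pycr1*. CACGTG, the E-box bound by MYC among others, is in 8.08% of them and in 1 of the 10, that of *Aldh1l2*. TGACNNNGC, the core bound by NRF2, is in 10.8% of them and in 1 of the 10, that of *Phgdh*. No match overlapped another. These 3 promoters are shown on their own strand, 5′ to 3′, up to the base before the GENCODE start on GRCm39, with the matched letters in capitals (on the opposite strand in *Phgdh*). *Phgdh* starts after chr3:98247307-98247556, *Aldh1l2* after chr10:83370006-83370255 and *Pycr1* after chr11:120534599-120534848, all on the minus strand. A match describes the letters only, and no match says only that the pattern is not in this window.
*Phgdh*: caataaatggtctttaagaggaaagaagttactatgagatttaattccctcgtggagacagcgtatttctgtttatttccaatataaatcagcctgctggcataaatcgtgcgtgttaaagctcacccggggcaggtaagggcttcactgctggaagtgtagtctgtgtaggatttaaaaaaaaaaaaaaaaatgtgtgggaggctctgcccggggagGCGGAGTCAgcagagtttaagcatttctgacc
*Aldh1l2*: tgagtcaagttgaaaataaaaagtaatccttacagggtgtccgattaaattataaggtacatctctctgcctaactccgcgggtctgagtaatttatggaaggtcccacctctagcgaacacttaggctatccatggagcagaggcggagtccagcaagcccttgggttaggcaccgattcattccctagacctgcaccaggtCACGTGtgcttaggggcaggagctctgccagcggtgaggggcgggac
*Pycr1*: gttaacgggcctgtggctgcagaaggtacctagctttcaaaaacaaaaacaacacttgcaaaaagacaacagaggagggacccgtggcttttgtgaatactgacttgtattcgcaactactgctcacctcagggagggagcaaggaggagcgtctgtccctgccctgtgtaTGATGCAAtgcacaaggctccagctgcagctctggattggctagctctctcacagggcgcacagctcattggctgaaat
The match lies 32 to 24 bases before the start in *Phgdh*, 47 to 42 bases before it in *Aldh1l2* and 79 to 72 bases before it in *Pycr1*. *Phgdh* and *Aldh1l2* stand at opposite ends of the levels described next.

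Divided by transcript length, the 10 transcripts ordered from *Phgdh*, at a mean level of 276 CPM per kilobase over the 8 libraries (range 259 to 292), to *Aldh1l2*, at 2.41 (1.77 to 3.54). *Shmt2* followed at 217 and *Psat1* at 194 CPM per kilobase, and these neighbours overlapped in range. *Mthfd2* at 104, *Mthfd1l* at 67.8 and *Mthfd1* at 58.9 formed the folate steps in the middle of the order. *Psph* at 44.2 and *Shmt1* at 38.1 CPM per kilobase also overlapped in range, and *Pycr1* was at 9.20. In all 8 libraries each transcript was above the next in this order, including the pairs whose ranges overlapped. The 3 genes of serine synthesis were thus at unequal levels per length, with the phosphatase lowest. Lengths are those of the annotated canonical transcripts, from 1885 bases for *Pycr1* to 6028 for *Aldh1l2*.

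**Figure D2:**
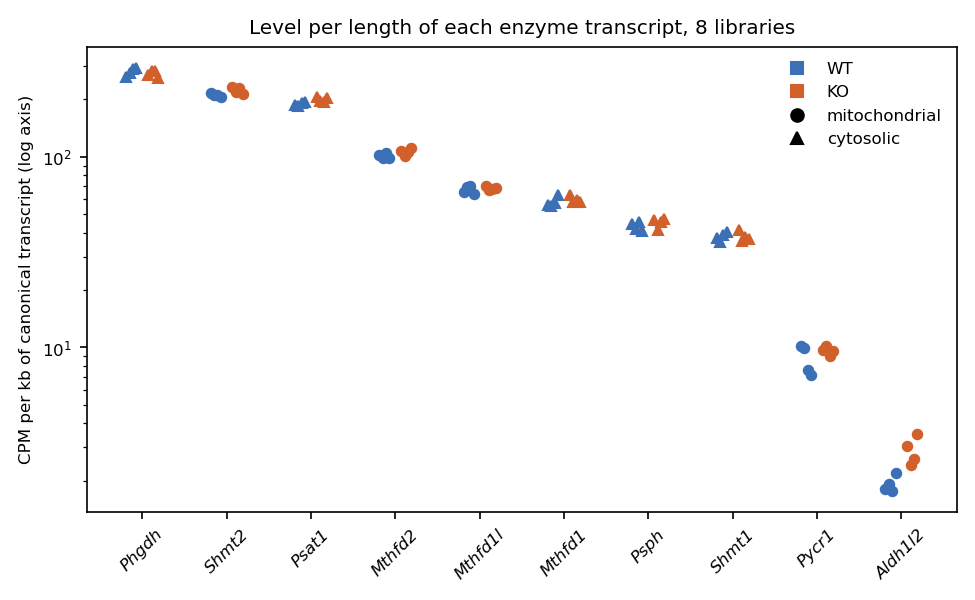
Level per length of each transcript (CPM per kilobase of canonical transcript, log axis) in the 8 libraries, WT in blue and KO in orange, with circles for mitochondrial and triangles for cytosolic enzymes. Levels run from 276 CPM per kilobase for *Phgdh* to 2.41 for *Aldh1l2*, and WT and KO points overlap for all but *Aldh1l2*.

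Mitochondrial and cytosolic members were then set side by side. The median log2 fold change was 0.09 for the 5 mitochondrial members, all 5 above 0, and 0.08 for the 4 other than *Aldh1l2*. For the 5 cytosolic members it was 0.04, with 4 above 0. Summed over the 5 mitochondrial members, the level was 983, 979, 987 and 946 CPM in WT1 to WT4 and 1058, 1000, 1036 and 1020 CPM in KO1 to KO4, so that every KO library lay above every WT library. Without *Aldh1l2*, which was chosen for its direction, the sum was at most 976 CPM in WT and at least 986 CPM in KO libraries. *Shmt2* gave the most to it, and *Shmt2* itself overlapped between the genotypes. Every KO library lay above every WT library for 2.25% of single tested genes, and such a share was not counted for sums. The separation is therefore a description only. The cytosolic sum overlapped, at 1391 to 1485 CPM in WT and 1440 to 1491 CPM in KO libraries. No test is given for these sums or medians, because the members were chosen with results known.

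Within a library, the ratio of a mitochondrial enzyme's counts to those of its cytosolic counterpart depends on neither depth nor normalization. *Shmt2* to *Shmt1* was 4.62, 4.75, 4.34 and 4.08 in WT1 to WT4 and 4.52, 4.87, 4.83 and 4.64 in KO1 to KO4. The groups overlapped, and the mean log2 ratio was higher in KO by 0.09 with an SE of 0.0551 (two-sided exact permutation test, p = 0.171, adjusted over 3 ratios 0.514). *Mthfd2* to *Mthfd1* was 1.14, 1.13, 1.14 and 0.987 in WT1 to WT4 and 1.07, 1.09, 1.12 and 1.202 in KO1 to KO4. WT4 stood below the other 7 libraries, and the difference in log2 ratio was 0.03 with an SE of 0.0627 (exact permutation p = 0.657, adjusted 0.914). *Mthfd1l* to *Mthfd1* was 1.29, 1.39, 1.36 and 1.13 in WT1 to WT4 and 1.23, 1.29, 1.28 and 1.31 in KO1 to KO4. Again WT4 was the lowest, and the difference was −0.01 with an SE of 0.0690 (exact permutation p = 0.914, adjusted 0.914). The smallest p that 4 against 4 libraries allow in this test is 0.0286. None of the 3 ratios differed between the genotypes beyond the spread of the libraries.

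**Figure D3:**
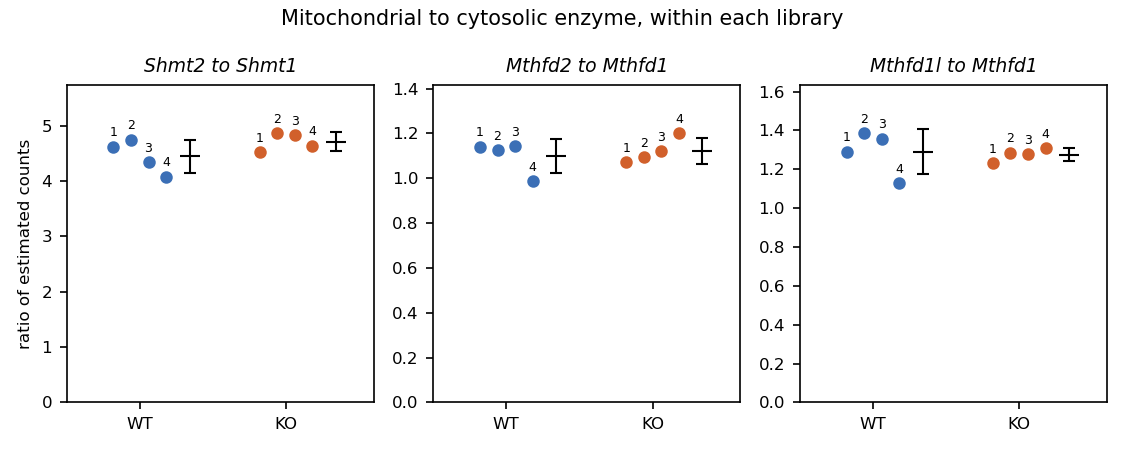
Ratio of the estimated counts of a mitochondrial enzyme to its cytosolic counterpart (vertical axis, no unit, from 0) in each library, numbered by replicate, with the mean ± SD in black. WT and KO overlap in all 3 ratios, and WT4 is the lowest library in each.

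Genes around these enzymes were taken from lists by function. Of the 20 genes of the folate cycle and its carriers, 15 were tested and none passed the adjusted threshold. At an unadjusted P below 0.05 the exception was *Ggh*, the hydrolase that trims folate polyglutamates, which had 8.35, 8.44, 6.87 and 7.72 CPM in WT1 to WT4 and 10.6, 8.78, 9.62 and 9.64 CPM in KO1 to KO4, a log2 fold change of 0.30 (SE 0.129, edgeR adjusted p = 0.479). Of the 14 genes of glycine cleavage and serine use, 10 were tested and none passed. At an unadjusted P below 0.05 were *Dld*, a subunit of the glycine cleavage system and of other dehydrogenases, at a log2 fold change of 0.13, and *Sptlc1*, which joins serine to palmitoyl-CoA in sphingolipid synthesis, at −0.15 (edgeR adjusted p = 0.446 and 0.424). *Amt*, the aminomethyltransferase of glycine cleavage, had the largest difference of that list at 0.28, with an SE of 0.286, and was at no more than 3.33 CPM in any library.

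Purine and thymidylate synthesis, which takes up folate-bound carbon, was represented by 14 genes, all tested and none passing the adjusted threshold, with a median log2 fold change of 0.03. *Prps1*, which makes the ribose donor of nucleotide synthesis, had 245, 249, 236 and 229 CPM in WT1 to WT4 and 277, 257, 251 and 281 CPM in KO1 to KO4. Its log2 fold change was 0.15 (SE 0.0452, edgeR unadjusted P = 0.00345, adjusted p = 0.196). The genotypes did not overlap for 3 of the 14 genes, in mixed directions: *Prps1* and *Atic*, a late enzyme of purine synthesis, were higher in every KO library, and *Prps2*, the paralog of *Prps1*, was lower in every KO library. *Atic* and *Prps2* had log2 fold changes of 0.06 and −0.08 (edgeR adjusted p = 0.668 and 0.609). Of the 11 genes of proline and glutamate-derived amino acids, none passed. *Gpt2*, a mitochondrial aminotransferase that makes alanine from glutamate, had 48.7, 49.4, 45.7 and 50.6 CPM in WT1 to WT4 and 62.7, 53.5, 55.7 and 61.3 CPM in KO1 to KO4. Its groups did not overlap either, with a log2 fold change of 0.26 (SE 0.0640, edgeR unadjusted P = 6.21e-04, adjusted p = 0.0913). Groups that do not overlap, in either direction, were found for 4.89% of all tested genes.

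Of the 11 genes of the methionine cycle and transsulfuration, 9 were tested. At the adjusted threshold 1 rose and 1 fell, against 0.0619% of all tested genes called higher and 0.203% called lower. *Cth*, which makes cysteine from cystathionine, had 23.6, 20.0, 20.9 and 21.9 CPM in WT1 to WT4 and 33.8, 26.9, 29.3 and 33.5 CPM in KO1 to KO4. It rose by 0.51 on the log2 scale (SE 0.0881, edgeR adjusted p = 0.0147), and KO1 and KO4 were the highest libraries. *Ahcyl2*, a relative of the enzyme that clears S-adenosylhomocysteine, had 307, 306, 271 and 232 CPM in WT1 to WT4 and 187, 237, 228 and 187 CPM in KO1 to KO4. It fell by 0.41 on the log2 scale (SE 0.0823, edgeR adjusted p = 0.0399), although KO2 lay above WT4. The call of *Cth* was lost without WT2, WT3, KO1 or KO4 in turn (adjusted p = 0.0644, 0.0566, 0.104 and 0.102) and without KO1 and KO4 together (0.804). That of *Ahcyl2* was lost without WT1, WT2, WT3, KO1, KO3 or KO4 in turn (adjusted p = 0.204, 0.132, 0.0934, 0.234, 0.0585 and 0.214), without KO1 and KO4 together (1.0), and in DESeq2 on the same and on every listed gene (0.109 and 0.113).

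ATF4 and its textbook targets outside the pathway numbered 17, all tested. Of these, 2 passed the adjusted threshold and both were higher, against 0.0619% of all tested genes called higher. Their median log2 fold change was 0.13, with 15 of 17 above 0, as were 50.6% of all tested genes. The list was chosen with earlier results of these data known. *Asns*, which makes asparagine, had 126, 126, 129 and 138 CPM in WT1 to WT4 and 176, 143, 170.1 and 183 CPM in KO1 to KO4. It rose by 0.38 on the log2 scale (SE 0.0618, edgeR adjusted p = 0.0110). *Trib3*, a pseudokinase of the stress response, had 44.3, 46.8, 41.2 and 42.4 CPM in WT1 to WT4 and 54.0, 52.3, 54.9 and 52.6 CPM in KO1 to KO4. It rose by 0.29 on the log2 scale (SE 0.0597, edgeR adjusted p = 0.0439), and its 4 KO libraries lay close together. At an unadjusted P below 0.05 alone, *Cebpb*, *Ddit3*, *Eif4ebp1*, *Slc7a11* and *Vldlr* had log2 fold changes of 0.35, 0.29, 0.20, 0.67 and 0.40. In all, 7 of the 17 were higher with such a P, against 4.38% of all tested genes. *Slc7a11* was at a low level, 0.873 to 2.99 CPM over the libraries, and its SE was 0.311. *Atf4* itself, whose activity is known to be set mainly in translation, had a log2 fold change of 0.04 (adjusted p = 0.878). The call of *Asns* was lost without WT1, KO1 or KO4 in turn (adjusted p = 0.0782, 0.0845 and 0.0837) and without KO1 and KO4 together (0.661). That of *Trib3* was lost without any 1 library other than KO2 (adjusted p = 0.0516 to 0.199) and without KO1 and KO4 together (0.759).

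**Figure D4:**
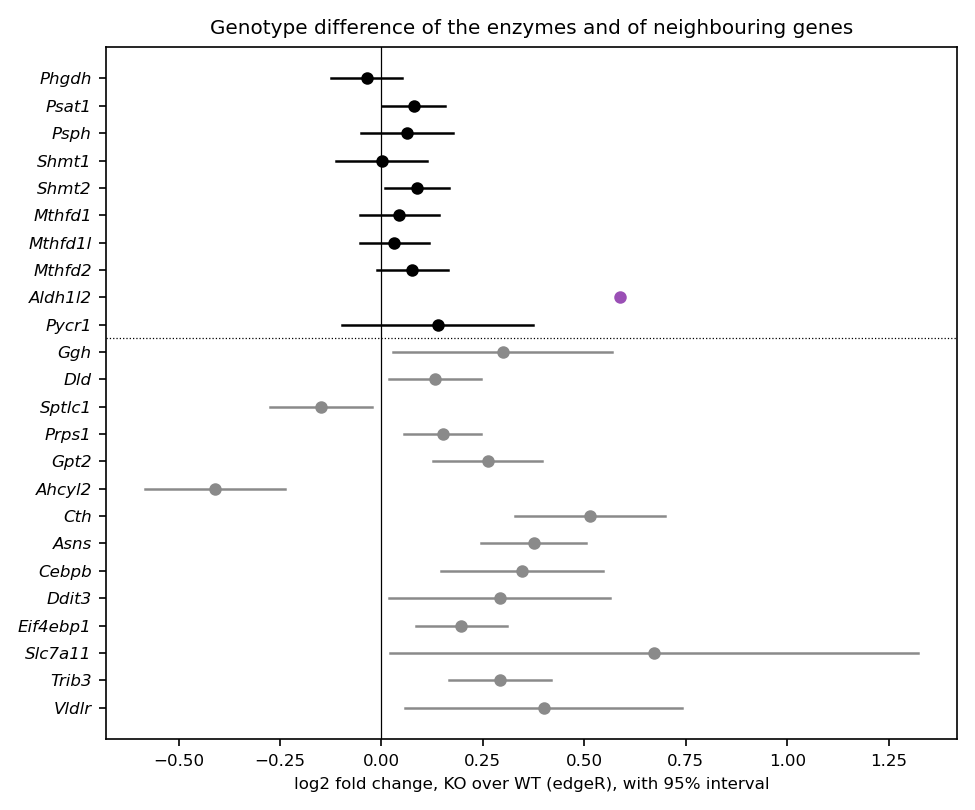
log2 fold change of KO over WT from edgeR (horizontal axis) for the 10 enzymes above the dotted line and, in grey below it, for genes of the related lists with an unadjusted P below 0.05, with 95% intervals as bars. *Aldh1l2*, in purple, was chosen for its direction and is drawn without an interval; of the other 9 enzymes, the intervals of *Psat1* and *Shmt2* lie just above 0 and those of the remaining 7 include 0.

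Among 10 other regulators, 9 were tested and none passed either threshold. The largest difference was that of *Eif2ak4*, the kinase that senses uncharged tRNA, at a log2 fold change of 0.11, and *Myc* had 0.08 (edgeR adjusted p = 0.701 and 0.586). None of the 15 genes of S phase passed either threshold, and their median log2 fold change was −0.02. The largest of them was that of *Ccne1*, at −0.12, and the summed level of the list was 5982 to 6246 CPM in WT and 5873 to 6125 CPM in KO libraries. Of the T cell markers the largest difference was −0.10, for *Cd3e*, and the B cell marker *Cd79b* had −0.17 (edgeR adjusted p = 0.583 and 0.925).

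The genes whose level followed each of 3 members most closely over the 8 libraries are given as a description, since the points share the genotype difference and the libraries. For *Aldh1l2* they were *Zbtb32*, *Bltp3a* and *Bhlhe40*, with Pearson's r of 0.986, 0.984 and 0.977 and Spearman's rho of 0.976, 1.00 and 0.976. *Zbtb32* and *Bhlhe40* encode transcriptional repressors of activated T cells, and both were highest in KO1 and KO4, as *Aldh1l2* was. For *Mthfd2* they were *Zfp180*, *Stc2* and *Emp1* (r = 0.972, 0.961 and 0.946; rho = 0.976, 0.952 and 0.952). For *Phgdh*, whose highest values were in WT4 and WT3, they were *Ift27*, *Mcm5* and *Fbln2* (r = 0.966, 0.936 and 0.933; rho = 0.976, 0.952 and 0.905). *Mcm5*, a subunit of the replicative helicase, had 456 to 496 CPM over the 8 libraries and a log2 fold change of −0.03.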

How the data were processed

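Naïve splenic CD4+ T cells of WT and KO mice were cultured for 36 h, giving 4 libraries per genotype, and RNA was extracted with the RNeasy kit and made into libraries with the KAPA RNA HyperPrep kit with RiboErase. The authors aligned reads to GRCm39 (mm39) with STAR 2.7.8a, quantified them in Partek Flow by its E/M method, filtered them, and deposited estimated counts per gene. Annotation version and strand setting are not given in the sources used here.

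Estimated counts were rounded and normalized by TMM in edgeR 4.0.16 (R 4.3.3). filterByExpr with a minimum count of 10 kept 11317 genes and left out 594. Genotype alone was tested by the two-sided quasi-likelihood F-test. P-values were adjusted by Benjamini-Hochberg across the tested genes, with a threshold of 0.05. CPM values are normalized; 3 counts, taken as the floor of a library, equal 0.188 to 0.226 CPM. Ratios were compared by exact permutation over 70 arrangements. Intervals of counting cover counting error only. Promoters and lengths were read from GENCODE vM39 on GRCm39, and of 2 rows named *Gcat* the more abundant was used. Alternatives used DESeq2 1.42.0 and limma 3.58.1. The test was tried on simulated counts first. Libraries of a genotype were compared in pairs by chi-square per degree of freedom over genes, which is larger for less alike libraries. It was lowest for KO1 with KO4 (2.594) and WT1 with WT2 (2.685), and 3.729 to 6.175 for the other pairs. No pair was as alike as counting error alone would make it. The paper states replicates from independent mice, and the labels do not name the mouse of each library.

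The members and gene lists were chosen with earlier results of these data known. Genes named are the members, *Tdrd3*, *Foxp3*, list genes with an unadjusted P below 0.05 or the largest difference of their list, and the 3 genes most like *Aldh1l2*, *Mthfd2* and *Phgdh* in log2 CPM. *Lyz2*, *Aldh1l1*, *Myc*, *Atf4*, *Atic*, *Prps2*, *Ctla4*, *Tnfrsf18*, *Eomes*, *Klrk1* and genes overlapping members were named after their values were seen. A cutoff of 1.2-fold at an unadjusted P below 0.05, the smaller of the folds that the paper names, was met by 3.47% of all tested genes and by none of the 9 tested members.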

Additional observations from a re-analysis of the deposited data

Results flagged for a closer look

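The ratio of *Mthfd2* to *Mthfd1* counts in WT libraries has a sample far from the others: WT4 was at 0.987, against 1.14, 1.13 and 1.14 in WT1 to WT3. Its gap to the nearest library was 0.879 of the range of the group, above Dixon's 95% critical value for 4 samples. The level of *Mthfd1* in WT4 was 209.9 CPM, the highest WT value, and that of *Mthfd2* was 207 CPM, the lowest. In all, 26 groups of 4 values were examined, and chance flags about 1 in 20 such groups.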

How the results depend on the processing

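None of the 9 tested members was called at an adjusted p below 0.05 under any of 18 alternatives, and 0 to 3 of them had an unadjusted P below 0.05. The median log2 fold change stayed between 0.06 and 0.11 for the mitochondrial and between 0.01 and 0.06 for the cytosolic members. The log2 fold change of *Shmt1* turned negative without the low-count filter (−0.000672), with DESeq2 size factors (−0.000833), in DESeq2 on the same genes (−0.000782) and on every listed gene (−0.00117), without KO1 and KO4 (−0.0388), and over single libraries left out it ran from −0.0399 to 0.0303. Without KO1 and KO4, *Phgdh* had 0.0107, *Psph* −0.00103 and *Cd79b* 0.0708; over single libraries left out, *Cd79b* ran from −0.360 to 0.00549. The related lists held 3 genes called higher and 1 lower, against 0.0619% and 0.203% of all tested genes. Over single libraries left out these counts ran from 0 to 6 and from 0 to 1. Without KO1 and KO4 both were 0, and both runs of DESeq2 called 0 lower. Over single libraries left out, the log2 difference of the *Mthfd2* to *Mthfd1* ratio ran from −0.0204 to 0.0523 and that of *Mthfd1l* to *Mthfd1* from −0.0754 to 0.0233. Over all tested genes, 30 calls became 78 or 79 in DESeq2, 95 in limma voom, 3 without KO1 and KO4, and 6 to 162 over single libraries left out. The cause of these changes was not tested.

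Libraries of the same number did not deviate together (r from −0.05 to 0.06), so the numbers only name libraries. With the replicate number as a block, 87 genes were called over all, 0 members, and 3 list genes higher and 1 lower. With equal groups, the block leaves the mean log2 difference of each ratio unchanged by arithmetic. Its values of 0.09 for *Shmt2* to *Shmt1*, 0.03 for *Mthfd2* to *Mthfd1* and −0.01 for *Mthfd1l* to *Mthfd1* are therefore no check of the ratios. Counts of 152 to 314 limit the precision of *Aldh1l2*, and those of 192 to 308 that of *Pycr1*.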
